A study of Mus musculus with 13 samples.

Results

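A set of 10 genes that encode erasers of H3K4 methylation or proteins that read it was followed through an H3K4me3 ChIP-seq data set of mouse hippocampus. The members were taken by name from the deposited region table: the demethylase genes Kdm1a, Kdm1b, Kdm2a, Kdm2b, Kdm5a and Kdm5b and the reader genes Ing1, Ing2, Ing4 and Ing5, all autosomal. All 10 genes carried at least 1 region, and together they held 15 of the 14006 distinct regions of the table, which names 14523 genes. The 13 libraries came from 4 groups of C57BL/6 mice. Knockout mice (genotype label TC;MLML_MTR-KO) given SRT2104 had 4 libraries, knockout mice labelled as untreated had 2, wild-type mice (MLML-WT) given SRT2104 had 3, and wild-type mice given vehicle had 4. In the knockouts the floxed exons 4 and 5 of Mtr, the methionine synthase gene, are removed in the central nervous system by Cre under the Thy-1.2 promoter. Treated mice were gavaged with 50 mg/kg of SRT2104, which activates the deacetylase SIRT1, 9 times between day 15 and day 36 at 3 times per week, and the vehicle was DMSO-PEG. The untreated knockouts are not labelled as gavaged, so gavage cannot be told apart from genotype or compound in comparisons that use them. The labels do not say that each library is a separate mouse, so the tests weigh a difference against the spread of these libraries, which may be technical.

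H3K4me3 marks active promoters, most densely over CpG islands. The flavin-dependent enzymes Kdm1a and Kdm1b remove mono- and dimethyl groups, whereas the JmjC enzymes Kdm5a and Kdm5b also remove the trimethyl state, and Kdm2a and Kdm2b bind unmethylated CpG through a CXXC domain and are best known for acting on H3K36. The Ing proteins bind H3K4me3 through a PHD finger and bring histone deacetylases (Ing1 and Ing2, in SIN3 complexes) or MYST-family acetyltransferases (Ing4 and Ing5) to it. The values here are of the mark on these genes' own promoters. They say nothing on the amount or activity of the proteins, and in a mixed tissue fewer cells of a type and less mark per cell cannot be told apart.

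Promoters of the genes with the densest member regions (Kdm5b, Ing2, Ing1) and with the sparsest (Ing5, Ing4) are shown to set the sequences of both ends side by side. Each is the 250 bases before the most upstream start in RefSeq, build GRCm38.p6, read along the gene: Kdm5b at chr1:134559928-134560177 (plus strand), Ing2 at chr8:47675160-47675409 (minus strand), Ing1 at chr8:11555512-11555761 (plus strand), Ing5 at chr1:93803715-93803964 (plus strand) and Ing4 at chr6:125039598-125039847 (plus strand). Capitals mark matches, on either strand, to the GC box GGGCGG, the words CCAAT and TATAAA, the NRF1 word (GCGC, any base, then TGCGC), the ETS word CCGGAAG, the CRE word TGACGTCA and the E-box CACGTG. Where matches adjoin or overlap, the capitals run together.
Kdm5b: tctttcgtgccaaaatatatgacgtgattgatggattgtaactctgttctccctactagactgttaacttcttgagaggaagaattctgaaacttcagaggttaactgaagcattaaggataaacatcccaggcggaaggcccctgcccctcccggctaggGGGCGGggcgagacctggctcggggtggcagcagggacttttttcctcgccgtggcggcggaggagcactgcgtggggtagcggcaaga
Ing2: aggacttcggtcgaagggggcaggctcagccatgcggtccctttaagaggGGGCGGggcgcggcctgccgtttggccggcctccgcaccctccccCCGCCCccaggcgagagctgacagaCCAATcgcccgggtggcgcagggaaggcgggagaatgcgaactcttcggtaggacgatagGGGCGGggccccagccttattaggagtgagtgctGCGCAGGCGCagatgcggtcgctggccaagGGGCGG
Ing1 start 1: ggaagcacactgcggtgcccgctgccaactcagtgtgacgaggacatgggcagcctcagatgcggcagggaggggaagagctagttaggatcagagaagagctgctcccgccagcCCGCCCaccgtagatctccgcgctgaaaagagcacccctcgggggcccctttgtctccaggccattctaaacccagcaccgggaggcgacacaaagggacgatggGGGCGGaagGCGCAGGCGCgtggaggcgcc
Ing5: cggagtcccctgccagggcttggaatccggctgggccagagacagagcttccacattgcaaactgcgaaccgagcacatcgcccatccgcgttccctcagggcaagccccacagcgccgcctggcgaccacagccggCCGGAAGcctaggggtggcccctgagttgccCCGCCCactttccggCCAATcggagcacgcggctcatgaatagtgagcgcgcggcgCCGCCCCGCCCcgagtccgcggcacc
Ing4: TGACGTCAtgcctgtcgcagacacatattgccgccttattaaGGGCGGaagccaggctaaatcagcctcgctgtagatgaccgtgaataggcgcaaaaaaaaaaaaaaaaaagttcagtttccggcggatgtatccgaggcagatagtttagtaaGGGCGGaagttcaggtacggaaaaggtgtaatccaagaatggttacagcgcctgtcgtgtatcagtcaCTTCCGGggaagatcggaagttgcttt

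All 5 of these windows hold a GC box, a word found in 32.7% of the 32851 RefSeq windows of this length. The NRF1 word stands in Ing1 and Ing2 (3.74% of all windows), CCAAT in Ing2 and Ing5 (33.8%), and the ETS word in Ing4 and Ing5 (6.91%). Ing4 opens with the CRE word, a match present in 1.55% of windows. The TATA word (12.4% of windows) and the E-box (6.02%) match none of the 5. Among these 5 windows the order of CpG richness was not that of the density of the mark, by count or by ratio. CpG counts were 26 in Ing5, 24 in Ing2, 18 in Ing1 start 1, 16 in Ing4 and 13 in Kdm5b. The median count over all windows was 6. Ing4 was 47.6% GC, against a median of 52.4%, and low GC raises the ratio. The ratio of observed to expected CpG was 1.17 for Ing4, 0.864 for Ing5, 0.80 for Ing2, 0.718 for Kdm5b and 0.673 for Ing1 start 1. The median over all windows was 0.373. For Ing1 these statements hold for start 1 only: starts 2 to 5 stood at 0.941, 0.904, 0.957 and 0.895. Starts 2 and 3 hold both the TATA word and CCAAT, and start 5 holds CCAAT. Of the 10 genes, 8 have a start in this table. A match is a description of letters and shows no binding.

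Libraries held 3963196 to 9009109 reads within regions, the lowest in WT SRT2104 replicate 1 and the highest in KO SRT2104 replicate 2. A normalised read count is the deposited value, in which the authors scaled the reads of each library by a single factor, and values per kb divide it by the length of the region so that genes can be compared. The mean value over all regions, which the scaling leaves unequal, ranged from 511 in WT SRT2104 replicate 1 to 582 in KO untreated replicate 1. Regions of all 11 excitatory neuron markers were found, none at 0 in any library. The regions found for markers of other cell types and of neighbouring or hindbrain regions were not at 0 either, so this does not tell tissues apart. Sex letters in the column names give 2 females and 2 males in the KO SRT2104 group, 2 females among KO untreated, 1 female (replicate 1) and 2 males among WT SRT2104, and 4 males among WT vehicle. Sex and genotype therefore cannot be told apart between KO untreated and WT vehicle libraries. The Mtr promoter region had 468 ± 23.4 in KO SRT2104, 468 ± 58.9 in KO untreated, 493 ± 22.9 in WT SRT2104 and 489 ± 2.67 in WT vehicle libraries. The deleted exons lie downstream of it, so it does not check the knockout.

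Members were mostly densely marked. On the scale of normalised reads per kb, averaged over the 13 libraries, 13 of the 15 member regions lay above the median of all regions, 359.9, 10 above the 75th percentile of 440.0 and 4 above the 99th percentile of 594. Kdm5b, one of the pair of members that remove the trimethyl state itself, was densest at 709 ± 49.8 per kb (SD, n = 13), with single libraries at 629.5 to 801. Ing2 followed at 663 ± 36.3, then Ing1 region 2 at 663 ± 56.6, Ing1 region 3 at 603 ± 60.4 and Kdm2a region 2 at 582 ± 27.1. In this order every region overlapped its neighbour above in range, except the last.

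That last region was Ing4, at 286 ± 13.4 per kb with a range of 270.6 to 311.6, wholly below the 312.1 to 379.6 of Ing5 region 1. The middle of the order held Ing1 region 1 (546), Kdm1a (519), Kdm5a (478), Kdm2a region 1 (452), Kdm1b (442), Kdm2b regions 1 and 2 (436 and 435) and Ing5 region 2 (400.5). The library ranges of the 2 Kdm2a regions did not overlap, while those of the 3 Ing1 regions and of the 2 Kdm2b regions did. The member regions had a median length of 1641 bp and a median coefficient of variation over libraries of 6.39%, against 1484 bp and 6.37% over all regions.

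**Figure D1:**
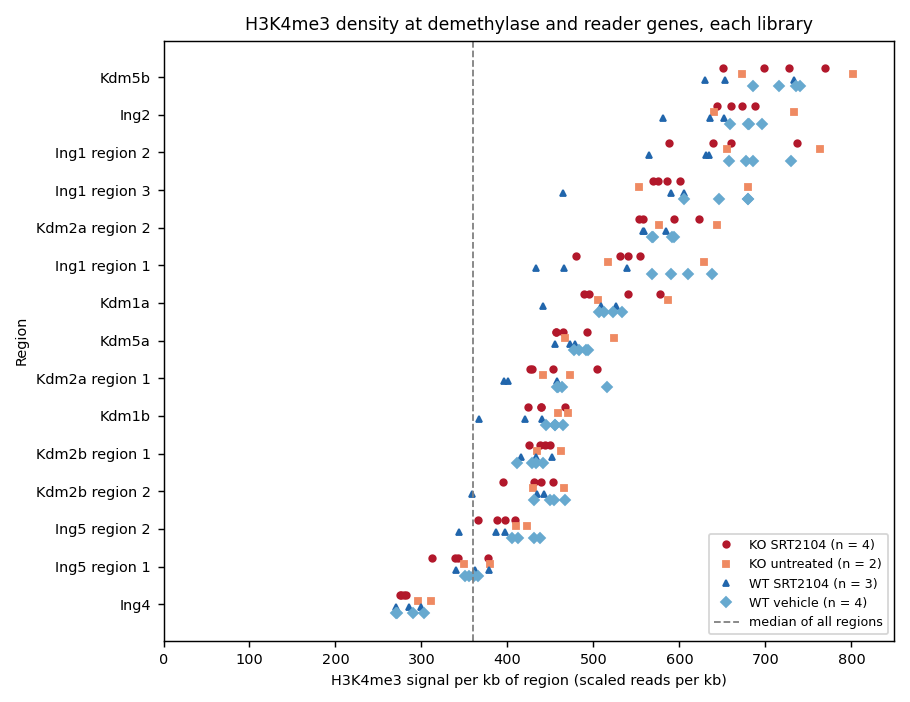
H3K4me3 density of the 15 member regions (rows, densest at the top) in each of the 13 libraries, as normalised reads per kb of region on the x axis, with colours and shapes for the 4 groups and a dashed line at the median of all regions. Kdm5b, Ing2 and Ing1 lie far to the right of the dashed line, Ing4 lies left of it in every library, and the groups overlap in most rows.

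The layout of the mark differed between the genes. Coordinates of regions are mm9, and each region overlaps a deposited promoter window of 2500 bp. Among the erasers, Kdm1a (chromosome 4, 136157304 to 136158756), Kdm1b (chromosome 13, 47138155 to 47140071), Kdm5a (chromosome 6, 120313376 to 120315518) and Kdm5b (chromosome 1, 136456665 to 136458462) had 1 region each. Kdm2a had 2 on chromosome 19 (4397333 to 4398477 and 4395518 to 4397159), parted by 174 bp. Kdm2b, a component of the variant Polycomb complex PRC1.1, had 2 on chromosome 5 (123437400 to 123439930 and 123349350 to 123351030), 86370 bp apart.

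Among the readers, Ing2 on chromosome 8 (48758784 to 48761605) had the longest member region, 2821 bp, and Ing4 had 1 on chromosome 6 (124989131 to 124990638). Ing1 was split into 3 on chromosome 8: region 1 (11555028 to 11555778), region 2 (11556008 to 11557953) and region 3 (11558374 to 11558774), of 750, 1945 and 400 bp, parted by 230 and 421 bp. The table lists 5 promoter windows for Ing1, spaced by 301, 2, 392 and 1953 bp, the same spacing as 5 Ing1 starts in RefSeq. Ing5 had 2 regions on chromosome 1 (95697896 to 95698991 and 95700025 to 95701300), 1034 bp apart.

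Several regions are shared, so their signal cannot be given to 1 promoter: Kdm1b with Tpmt, Kdm5a with Ccdc77, Kdm2b region 1 with A930024E05Rik, and both Ing5 regions with Dtymk. Kdm1a, both Kdm2a regions, Kdm2b region 2, Kdm5b, Ing1, Ing2 and Ing4 carry no other gene's window. Regions of 1 gene moved together to unlike degrees over the 13 libraries, as a description: the Pearson r of log2 values was 0.90 between Ing1 regions 1 and 3, 0.78 between 1 and 2, and 0.715 between 2 and 3. It was 0.36 for Kdm2a, 0.24 for Ing5 and -0.06 for Kdm2b. These points share libraries and their scaling.

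**Figure D2:**
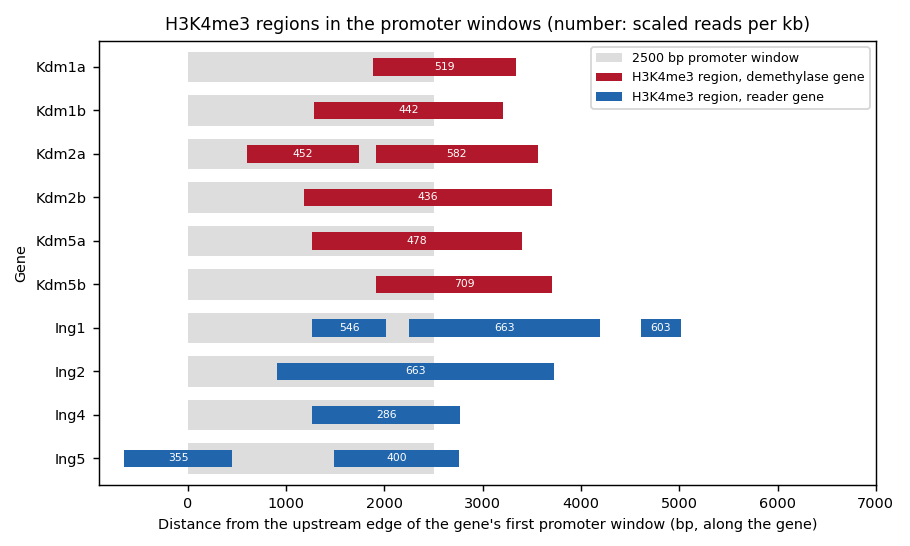
Position of the H3K4me3 regions along each gene, as distance in bp from the upstream edge of its first promoter window (grey bar, 2500 bp), with red bars for demethylase genes, blue bars for reader genes and the mean normalised reads per kb written in each bar. Ing1 is split into 3 regions of 750, 1945 and 400 bp, Kdm2a and Ing5 into 2, and Kdm2b region 2, 86370 bp from region 1, is not drawn.

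SRT2104 in wild-type mice gave the largest differences among the members. None of them passed the test, which was limma's moderated test over all 14006 regions at a Benjamini-Hochberg adjusted p under 0.05. The comparison of WT SRT2104 with WT vehicle libraries asks what the compound does to the mark where Mtr is intact. Ing1, the SIN3-HDAC reader, had the largest. Region 1 had 325, 349 and 404 normalised reads in WT SRT2104 libraries, against 442, 426, 478 and 457 in WT vehicle libraries. Every SRT2104 library was below every vehicle library, with replicate 1 the lowest. The log2 difference, on the log2(value + 1) scale, was -0.33 (SE 0.078, 95% interval -0.49 to -0.17), with an unadjusted p of 0.00027 and a limma Benjamini-Hochberg adjusted p = 0.332.

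Ing1 region 2, the large one, had 1099, 1228 and 1233 in WT SRT2104 libraries, against 1334, 1279, 1419 and 1318 in WT vehicle libraries (log2 -0.17, SE 0.070, limma adjusted p = 0.339). Ing1 region 3 had 185.8, 236.1 and 242.1 in WT SRT2104 libraries, against 258.6, 242.1, 272.0 and 271.8 in WT vehicle libraries (log2 -0.25, SE 0.097, limma adjusted p = 0.336). The groups were apart in both, in region 3 by less than the rounding of these values. Ing2, the other SIN3-HDAC reader, had 1640.0, 1794 and 1839 in WT SRT2104 libraries, against 1919, 1858, 1965 and 1922 in WT vehicle libraries (log2 -0.13, SE 0.058, limma adjusted p = 0.356). Here too the groups did not overlap, and replicate 1 was the lowest.

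Of the acetyltransferase-linked readers, Ing5 region 2 had 438, 494 and 506 in WT SRT2104 libraries, against 549, 517, 558 and 525 in WT vehicle libraries (log2 -0.17, SE 0.059, limma adjusted p = 0.332). The groups were apart there, while Ing5 region 1 had 397, 372 and 415 in WT SRT2104 libraries, against 400.0, 384, 396 and 389 in WT vehicle libraries (log2 0.01). Those values overlapped throughout. Ing4 had 429, 408 and 451 in WT SRT2104 libraries, against 436, 409.6, 456 and 408 in WT vehicle libraries (log2 0.01), again with full overlap.

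Among the erasers, Kdm1b, known for its part in setting DNA methylation imprints in oocytes, had 704, 843 and 806 in WT SRT2104 libraries, against 873, 872, 890.4 and 852 in WT vehicle libraries (log2 -0.16, SE 0.057, limma adjusted p = 0.332). The groups did not overlap. Kdm2a region 1 had 453, 458 and 523 in WT SRT2104 libraries, against 523, 524, 589.7 and 529.5 in WT vehicle libraries (log2 -0.18, SE 0.067, limma adjusted p = 0.332). Here the highest SRT2104 library reached the lowest vehicle libraries. The H3K4me3 demethylase genes lay closer to 0, with Kdm5a at -0.05 (95% interval -0.16 to 0.05) and Kdm5b at -0.10 (-0.24 to 0.04). Kdm1a was at -0.08, Kdm2a region 2 at -0.04, Kdm2b region 2 at -0.13 and Kdm2b region 1 at 0.02.

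**Figure D3:**
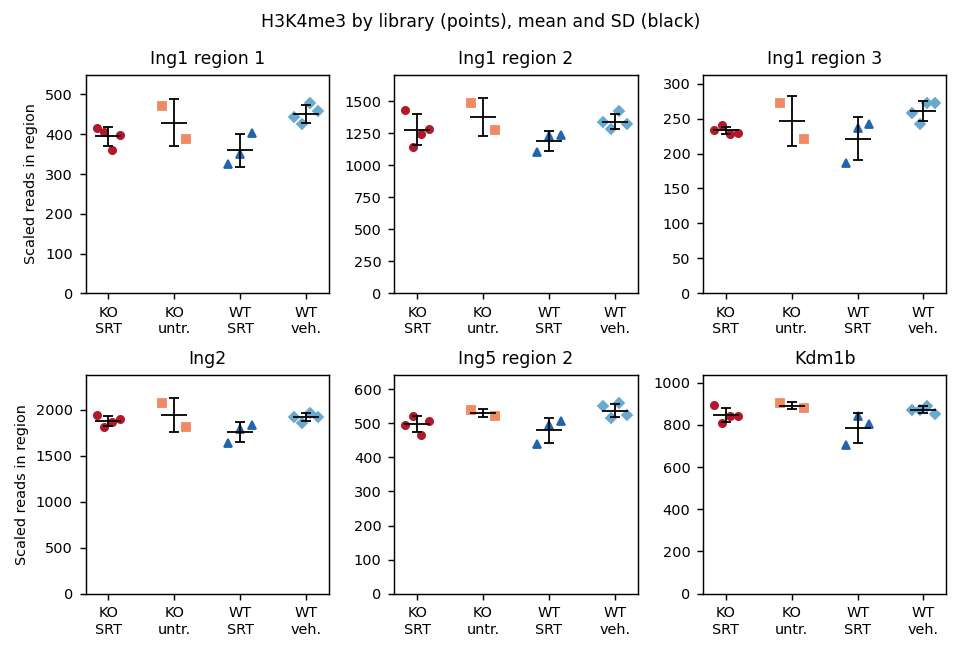
Normalised reads in 6 member regions, with 1 point per library, in groups from left to right KO SRT2104 (n = 4), KO untreated (n = 2), WT SRT2104 (n = 3) and WT vehicle (n = 4), black bars for the mean and SD, and axes that start at 0. The 3 WT SRT2104 points of Ing1, Ing2, Ing5 region 2 and Kdm1b lie below the 4 WT vehicle points, barely so in Ing1 region 3, and in each panel the first of them is the lowest.

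Counted together, 0 of 15 member regions passed limma's adjusted p of 0.05 in WT SRT2104 against WT vehicle, where 1 of 14006 regions did (0.00714%). edgeR, DESeq2 and limma voom on the recovered reads also called 0 members. At an unadjusted p under 0.05 there were 7 member regions, against 13.4% of all regions. Each of the 7 had the lower value under SRT2104, as did 1601 of the 1876 regions at that threshold. Those 1601 are 11.4% of all regions. Log2 differences were below 0 in 12 of 15 members and in 71.5% of all regions, with medians of -0.13 and -0.05. The share over all regions rests on the deposited scaling: it was 49.82% with TMM, 50.62% with cyclic loess and 48.17% with scaling to total reads, with medians of 0.00 in all 3. In 6 of 15 members every SRT2104 library was below every vehicle library, which held in 12.7% of all regions. The 3 Ing1 regions, with Pearson r of 0.715 to 0.898 between them, are among both the 7 and the 6. These are therefore not counts of separate genes.

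Of the 15 members, 10 belong to the top quartile of all regions by reads per kb. With the deposited scaling 94.35% of the 3502 regions of that quartile had a log2 difference below 0, the median was -0.08 and every SRT2104 library was below every vehicle library in 25.9%. The 10 members there had a median of -0.14, with 5 whose libraries were apart, among them the 3 Ing1 regions. The share below 0 in the quartile was 72.99% with TMM, 61.48% with loess and 70.67% with total-read scaling, with medians of -0.03, -0.01 and -0.03, beside medians of -0.09, -0.06 and -0.09 for its 10 members.

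WT SRT2104 replicate 1, a female and the shallowest library, was the lowest of the 13 in 11 of 15 member regions, and in 35.5% of all regions. Without it, Ing1 region 1 stood at -0.26 (limma adjusted p = 0.952, unadjusted p = 0.00326) and was the 1 member with an unadjusted p under 0.05. The other regions then stood at -0.12 (Ing1 region 2), -0.13 (Ing1 region 3), -0.08 (Ing2), -0.10 (Ing5 region 2), -0.08 (Kdm1b) and -0.14 (Kdm2a region 1), and the median over members was -0.06 without this library and -0.13 with it, and that over all regions -0.03 and -0.05. With TMM scaling 6 member regions had an unadjusted p under 0.05, 11 were below 0 and the median was -0.07. With cyclic loess scaling these were 5, 10 and -0.03, and Ing2 stood at -0.03, while Kdm2a region 1 stood at -0.06 in limma voom. With the sex letter in the model 5 did, with Ing1 region 1 at -0.29. The part of depth in these differences was not tested. Summed levels of each of the 8 marker lists of cell types and neighbouring regions overlapped between the groups, for example 6672 to 7632 in WT SRT2104 and 6393 to 7091.5 in WT vehicle libraries for excitatory neurons.

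Loss of Mtr without treatment was not accompanied by a detectable difference at any member. In KO untreated against WT vehicle libraries 0 of 15 member regions passed, against 0.00714% of all regions, and 0 had an unadjusted p under 0.05, against 9.14%. edgeR, DESeq2 and limma voom called 0 as well. Log2 differences ran from -0.09 at Ing1 region 3 to 0.10 at Ing4, and the smallest limma adjusted p was 0.7004. The outermost bounds of the members' 95% intervals were -0.32 and 0.24, or -19.65% and 17.93%. With 2 knockout libraries, changes within a member's own interval were not resolved. In the authors' deposited table the log2 fold change of the members, knockout over wild type, likewise ran from -0.09 to 0.10, with adjusted p-values of 0.9125 to 0.992.

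Kdm5b, the densest member, had 1440.0 and 1208 in KO untreated libraries, against 1286, 1232, 1331 and 1321 in WT vehicle libraries. Kdm5a had 1121 and 1001 in KO untreated libraries, against 1023, 1058, 1052 and 1035 in WT vehicle libraries. In both genes the 2 knockout libraries fell on either side of all 4 wild-type ones. Ing4 had 469.6 and 447 in KO untreated libraries, against 436, 409.6, 456 and 408 in WT vehicle libraries, and 1 vehicle library lay between them.

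KO untreated replicate 1 was the highest of the 13 libraries in 11 of 15 member regions, and in 38.0% of all regions. No member had its 2 knockout libraries both below or both above all vehicle libraries, which held in 4.29% and 8.95% of all regions. Differences were below 0 in 5 of 15 members, against 34.6% of all regions and 20.05% of the top quartile by reads per kb. With TMM or loess scaling they were below 0 in 10 of 15, against 50.56% and 50.14% of all regions. Without KO untreated replicate 1 they were below 0 in 12 of 15 (median -0.06, and 56.48% of all regions), and without replicate 2 in 1 of 15 (median 0.10, and 26.93%). The sign of these small differences therefore depends on the scaling and on a single library. Sex could not be separated by design. Markers of other cell types moved between these groups: the summed level of the 10 astrocyte markers was 3552 to 3581 in KO untreated and 3053 to 3311 in WT vehicle libraries, and that of 9 endothelial and pericyte markers 1819 to 2049 and 1562 to 1765. The 8 interneuron markers summed to 1191 to 1222 in KO untreated and 1263 to 1796 in WT vehicle libraries. The sums of the remaining 5 lists overlapped, but a sum is led by its strongest genes. Gene by gene, log2 differences were below 0 in 6 of 6 choroid plexus, 12 of 14 oligodendrocyte and 10 of 11 neighbouring-region markers. Their medians were -0.36, -0.19 and -0.19. The counts were 6 of 8 for interneurons, 2 of 11 for excitatory neurons and 2 of 6 for microglia. The part of these markers in the members' values was not tested.

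SRT2104 in knockouts was set against untreated knockouts to ask whether the compound changes the mark where Mtr is lost. Log2 differences of the members ran from -0.13 at Ing4 to -0.01 at Kdm2a region 1. The 15 member regions were each lower on average in KO SRT2104 libraries, as were 71.4% of all regions and 90.21% of the top quartile by reads per kb. The count was 11 with TMM and 9 with loess scaling, beside 51.55% and 51.61% of all regions. Without KO untreated replicate 1 it was 7, with a median of 0.01 against -0.07 with that library, beside 50.75% of all regions, so the direction rests on 1 of the 2 untreated libraries. None of the 15 passed (0.0% of all regions did, in limma), none had an unadjusted p under 0.05 (12.5% of all regions), and the smallest limma adjusted p was 0.437. edgeR, DESeq2 and limma voom called 0 members.

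Ing4 had 416, 426, 415 and 422 in KO SRT2104 libraries, against 469.6 and 447 in KO untreated libraries, with a gap between the groups (log2 -0.13, SE 0.067). Ing5 region 2 had 494.0, 521.8, 466.9 and 506.7 in KO SRT2104 libraries, against 538.5 and 522.6 in KO untreated libraries (log2 -0.09, SE 0.067), with a gap of under 1 normalised read. These were the 2 members of 15 with every treated library lower, which held in 15.5% of all regions. A share of 2 in 15 is no higher than that of all regions. Both genes encode readers of the MYST acetyltransferase complexes, but Ing5 region 2 is shared with Dtymk, and Ing5 region 1 overlapped between the groups. The summed astrocyte markers were 3049.5 to 3237 in KO SRT2104 and 3552 to 3581 in KO untreated libraries. The endothelial sums were also lower in KO SRT2104, without overlap. Interneuron sums were higher, at 1358 to 1632 in KO SRT2104 and 1191 to 1222 in KO untreated libraries. Choroid plexus sums were higher too, at 1495 to 1671 and 1141 to 1287. The sums of the other marker lists overlapped. Their part in these values was not tested.

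With SRT2104 in both genotypes, KO against WT, 12 of 15 members were higher in the knockouts, with a median log2 difference of 0.08 against 0.03 over all regions, of which 32.2% were below 0. Without WT SRT2104 replicate 1 the count was 9 and the median 0.03, beside 40.55% of regions below 0. With TMM they were 11 and 0.05, with loess 10 and 0.02, beside 50.68% and 50.26%. In the top quartile by reads per kb 11.76% of regions were below 0 on the deposited scaling, with a median of 0.06. No member passed (0.00714% of all regions did), none had an unadjusted p under 0.05 (6.2%), and the smallest limma adjusted p was 0.7799. edgeR, DESeq2 and limma voom called 0 members. No member was apart in all libraries, which held in 1.71% of regions lower and 5.09% higher. Kdm1b had 895, 812, 840.1 and 842 in KO SRT2104 libraries, against 704, 843 and 806 in WT SRT2104 libraries (log2 0.11, SE 0.057), where the 2 highest wild-type libraries lay within or just below the knockout range.

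Treated knockouts against WT vehicle differ in genotype and compound together, and in sex, with 2 females and 2 males against 4 males. Ing1 region 1 had 416, 405, 360.1 and 398 in KO SRT2104 libraries, against 442, 426, 478 and 457 in WT vehicle libraries. All 4 treated knockouts lay below all 4 vehicle libraries (log2 -0.19, SE 0.072, unadjusted p = 0.0131, limma adjusted p = 0.9996 over all regions). Ing1 region 3 had 234.0, 240.3, 227.8 and 229.9 in KO SRT2104 libraries, against 258.6, 242.1, 272.0 and 271.8 in WT vehicle libraries (log2 -0.16, SE 0.090), also without overlap.

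These were 2 members of 15 whose libraries were apart, both of the same gene, against 2.32% of all regions. No member passed in limma, edgeR, DESeq2 or limma voom (0.00714% of all regions in limma), and 1 had an unadjusted p under 0.05, against 2.16%. With the sex letter in the model 0 did, and Ing1 region 1 stood at -0.14. Log2 differences were below 0 in 12 of 15 members, against 61.5% of all regions, with medians of -0.06 and -0.02. In the top quartile by reads per kb 75.87% were below 0. With TMM and with loess scaling 12 members were again below 0, beside 49.59% and 50.39% of all regions. Ing1 regions 1 and 3 had their highest group mean in WT vehicle libraries and lower means in each of the other 3 groups: region 1 averaged 395 ± 24.3 in KO SRT2104, 429.5 ± 59.4 in KO untreated, 359 ± 40.6 in WT SRT2104 and 451 ± 22.4 in WT vehicle libraries. The comparisons with WT vehicle share those 4 libraries, so their values are not independent of each other.

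The SRT2104 difference in knockouts minus that in wild types was tested as an interaction. It ran from -0.13 at Ing4 to 0.21 at Ing1 region 1 (SE 0.12, 95% interval -0.03 to 0.46), and 0 of 15 members passed, against 0.0% of all regions. None had an unadjusted p under 0.05, against 7.88% of regions, and the smallest limma adjusted p was 0.7022. edgeR, DESeq2 and limma voom called 0 members. The larger Ing1 difference in wild types than in knockouts was therefore not shown to differ between the genotypes.

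Over groups, the highest mean was in KO untreated libraries for 10 of 15 member regions and in WT vehicle for 5, and the lowest in WT SRT2104 for 11, KO SRT2104 for 3 and WT vehicle for 1.

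**Figure D4:**
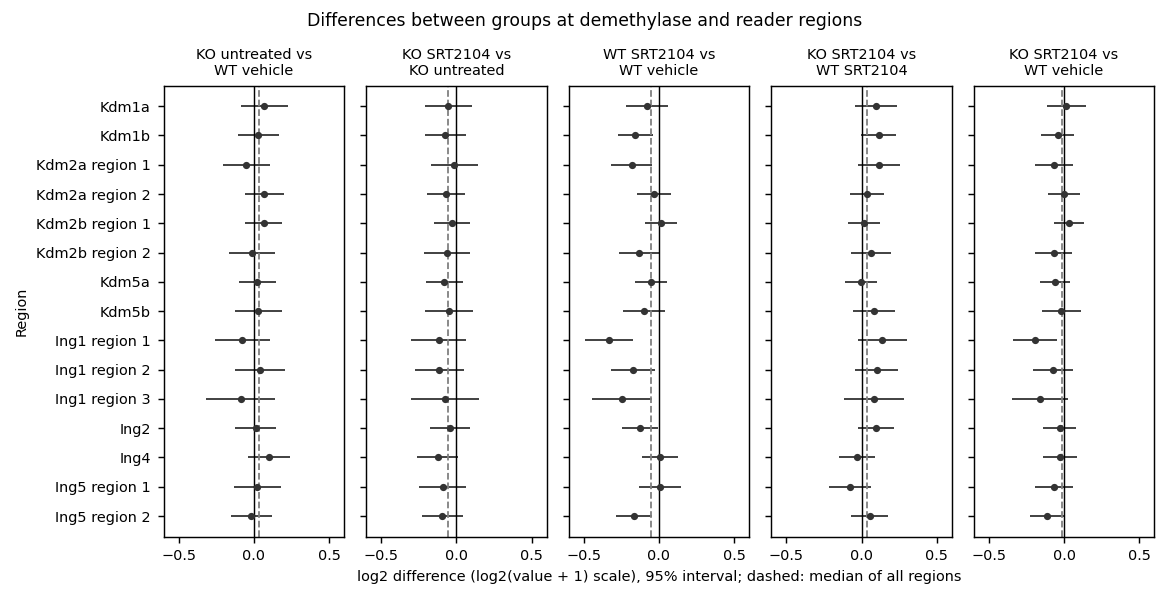
Log2 differences of the 15 member regions (rows) in the 5 comparisons (panels, named as the first group over the second), with 95% intervals, a solid line at 0 and a dashed line at the median of all regions. In the third panel, WT SRT2104 over WT vehicle, Ing1 region 1 at -0.33 lies farthest from 0, and in the last panel, KO SRT2104 over WT vehicle, it lies at -0.19.

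Sex was examined because the members' X-linked relative Kdm5c, another H3K4me3 demethylase, is known to escape X inactivation. Its region had 810.2 ± 62.8 in 5 female and 499 ± 19.2 in 8 male libraries. Among the autosomal members 0 of 15 passed in female against male libraries with the groups in the model, against 0.0928% of all regions. Ing5 region 2 was the 1 member with an unadjusted p under 0.05 (female minus male log2 -0.13, SE 0.054, limma adjusted p = 1), against 3.33% of all regions. edgeR, DESeq2 and limma voom called 0 members.

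Variation between libraries differed widely among the members. Relative to counting error, the variance over the 13 libraries was 9.24 times as large for Ing1 region 2 and 6.17 times for Kdm5b, but 0.93 times for Ing4, against a median of 2.02 over all regions. Ing4, Ing5 region 1 (1.12) and Kdm2b region 1 (1.14) thus varied about as much as counting alone. At equal relative spread this ratio is larger in regions with more reads. Ing2 had a ratio of 5.54 and a coefficient of variation of 5.48%, Ing1 region 3 a ratio of 2.41 and a coefficient of 10.02%. The coefficient was 8.53% for Ing1 region 2, 7.03% for Kdm5b and 4.68% for Ing4. Ing1 region 1 spanned 1.47-fold between its highest and lowest library, the widest of the members, and Kdm2b region 1 spanned 1.12-fold. The regions whose log2 values were most like those of Ing1 region 2 over the 13 libraries included Pou2f1 (Pearson r 0.98) and the region shared by Rdh10 and Rpl7 (0.97). For Kdm5b they were Pum2 (0.97), Cdk13 (0.96) and Ccdc6 (0.96). These points share depth and scaling, and the likeness is a description.

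Partners and relatives of these proteins were described from 7 lists, each gene by its region with the highest mean value over the 13 libraries. In the 5 comparisons between groups and the interaction, 0 genes of any list passed limma's adjusted p. In WT SRT2104 against WT vehicle the median log2 difference of each list lay between -0.11 and -0.07, against -0.05 over all regions, beside the members' -0.13. The counts below are on the deposited scaling, where 71.5% of all regions and 94.35% of the top quartile by reads per kb were below 0. The lists hold strongly marked regions, with median values of 703 to 992 normalised reads, against 526 over all regions. Taking the strongest region of each gene favours such values, whereas the shares over all regions and the members' median use every region. The methyltransferase list holds subunits of the H3K4 methyltransferase complexes and single enzymes such as Setd7. Of its 21 genes with a region 20 were below 0, with the smallest p at Hcfc1 (-0.18) and Setd7 (-0.17). Of 17 SIN3-HDAC subunits, the partners of Ing1 and Ing2, 17 were below 0, with Sin3a, the scaffold, at 949 in WT SRT2104 and 1073 in WT vehicle libraries (-0.18) and Brms1l at -0.17. With TMM these 2 counts were 15 and 13, and with loess 12 and 12, where about as many regions lay above 0 as below it.

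The 10 genes of the MYST list were also each below 0, led by Kat6b (-0.18) and Kat5 (-0.17). That list covers MYST acetyltransferase complexes broadly, and not every gene in it, such as Kat5, is a partner of Ing4 or Ing5. The 10 PRC1.1 partners of Kdm2b were each below 0 too, led by Rybp (-0.18) and Rnf2 (-0.13). The partners of Kdm1a and Kdm1b, such as the CoREST scaffold Rcor1 (-0.12) and Mta1 (-0.13), were below 0 in 14 of 15. Other H3K4me3 readers were below 0 in 18 of 20, with Phf13 (-0.21) and Zcwpw1 (-0.18) first, and other JmjC demethylases in 15 of 19, with 2410016O06Rik (-0.16) and Phf2 (-0.20) first. With TMM the counts were 9 of 10 MYST genes, 8 of 10 PRC1.1 genes, 12 of 15 Kdm1 partners, 16 of 20 readers and 10 of 19 JmjC genes, and with loess 8, 7, 10, 12 and 10. In KO SRT2104 against KO untreated libraries the lists were likewise mostly below 0 on the deposited scaling, such as 21 of 21 methyltransferase genes and 20 of 20 other readers. There 71.4% of all regions and 90.21% of the top quartile by reads per kb were below 0. With loess the 2 counts were 10 and 9. In female against male libraries, 3 of the 19 other JmjC genes passed: the X-linked Kdm5c and Kdm6a (log2 0.82, limma adjusted p = 8.67e-09) were higher and the Y-linked Uty lower.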

How the data were processed

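H3K4me3 ChIP-seq signal was measured in 13 hippocampus libraries. The authors deposited a signal per region and library, in which the reads of each library are scaled by a single factor, beside the promoter windows that each region overlaps. Per the submitters' processing notes the build is mm9 and the tools include MACS2, Bowtie2, DESeq2, bedtools and SAMtools, with no role stated. How regions were called, and against which input, is not given in the sources used here. The authors' deposited table also holds a log2 fold change and p-values per region for knockout against wild type.

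The 17212 lines were reduced to 14006 distinct regions. All 13 libraries held whole multiples of 1 step in 100% of values (tolerance 0.001 reads), so whole reads were recovered. They sum to 3963196 to 9009109 per library, and PCR copies cannot be told apart from independent molecules.

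The main test was limma's moderated test with trend and robust variances on log2(value + 1), across all regions and all 13 libraries with 1 coefficient per group, two-sided, with a Benjamini-Hochberg adjusted p under 0.05. Fold changes on this scale understate those of low regions. A filter of 10 in at least 2 libraries removed 0 regions. Female and male were compared with sex added to the model. The fit was tested on simulated data. Alternatives were limma voom with quality weights, DESeq2 and edgeR's quasi-likelihood test on recovered reads, other scalings, pseudocounts of 0.5 and 4, a mean minimum of 50, no filter, the compared groups alone, sex and the replicate number as terms, and leaving out each library. The software was limma 3.58.1, edgeR 4.0.16 and DESeq2 1.42.0 in R 4.3.3, with pandas 2.3.3 and matplotlib 3.10.9 in Python 3.11.15.

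Members, lists and comparisons were chosen with earlier results of these data known. Every member region is reported, in full where its unadjusted p was under 0.05. In pathway and marker lists each gene is represented by its region with the highest mean value. Of each list the 2 genes with the smallest p are named. For the 2 member regions with the most variance over counting error, the 3 most alike regions are named, except 1 that is not reported here. Promoter sequences are RefSeq's, build GRCm38.p6, and were not placed on the mm9 regions.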

Additional observations from a re-analysis of the deposited data

Results flagged for a closer look

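Kdm2a region 1 was the 1 member region in which a library stood far from the rest of its group. WT vehicle replicate 3 had 589.7 normalised reads, while the other 3 vehicle libraries lay between 523.2 and 529.5, so its gap to the nearest took 0.905 of the range of the group. Of the 30 groups of 4 libraries examined (15 member regions in 2 groups), chance flags about 1 in 20. The library also stood apart over all autosomal regions. On principal component 1 of the log2 values (27.2% of the variance) it was at 17.2, against -9.27 to -4.27 for the other vehicle libraries. KO untreated libraries were at 12.2 and 21.6. Leaving WT vehicle replicate 3 out changed the number of member regions called in no comparison.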

How the results depend on the processing

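None of the 15 member regions was called in the 5 comparisons, the interaction or the comparison of sexes under any setting run, and each of the 9 differences described in full kept its sign. The lowest adjusted p among all settings was 0.1104, for Ing1 region 1 in WT SRT2104 against WT vehicle libraries without WT SRT2104 replicate 3. That difference ranged from -0.42 to -0.20, and without 1 library from -0.42 to -0.26. The replicate numbers did not pair the libraries, since the 16 pairs with the same number had correlations of -0.333 to 0.22. With the replicate number as a block, 0 members were called in each comparison and Ing1 region 1 stood at -0.33 (limma adjusted p = 0.542). Over all regions the count for KO untreated against WT vehicle libraries was 1 in the main fit, 25 in DESeq2 and 564 without WT vehicle replicate 3 (380 higher and 184 lower). For KO SRT2104 against KO untreated libraries it was 0, 29 in DESeq2, 205 without that replicate and 365 with the 2 groups fitted alone; the cause was not tested. With 2 to 4 libraries a group and member intervals that reach -28.9% and 10.67% in WT SRT2104 against WT vehicle, smaller changes could not be resolved.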
